A study of Oryza sativa with 4 samples.

Results

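The nucleosomes described here lie around the centromeres of the 12 rice chromosomes. They were chosen by position alone: a nucleosome was taken if it lay within 1 Mb of the centromere point of its chromosome, where its position was the mean of the summit coordinates listed for it. The windows held 101119 of the 1690300 nucleosomes in the map of WT and *oschz1-1*, between 7399 on chromosome 4 and 9467 on chromosome 6. They were set beside the 1587589 nucleosomes in the rest of the same chromosomes.

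Rice centromeres are built on arrays of the satellite CentO and on centromere-specific retrotransposons, and part of their nucleosomes carry the H3 variant CENH3. The flanking pericentromere is rich in transposable elements and poor in active genes, and most of it is kept as heterochromatin, with dense DNA methylation and H3K9 methylation. OsChz1 is a histone chaperone that binds the dimers H2A–H2B and H2A.Z–H2B, and H2A.Z is a variant typically found at genes and depleted from methylated heterochromatin. MNase-seq sequences the fragments that nucleosomes protect from micrococcal nuclease, so a map of it holds positions and occupancy for each nucleosome but not which histones it contains.

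Seedlings of WT and *oschz1-1* were harvested at 30 days, after growth in long days (14 h light, 30 °C) with warm nights (10 h, 28 °C). *oschz1-1* is a loss-of-function line in which CRISPR/Cas9 removed 1 nucleotide from an exon of *OsChz1*, and it is the single mutant allele measured here. The labels name the genotype oschz1, and the study names the allele. Library titles give the WT as NIP, and the paper names its rice as the japonica cultivar Nipponbare. The reference genome (MSU7) is of the same cultivar. There were 2 libraries per genotype, which the authors merged before they listed 1 value per nucleosome and genotype.

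With 1 merged value per genotype there is no replicate error to compare a difference with, and no p-value is given. Depth is unknown, as the maps give no read counts. Spreads are given over the 12 chromosomes instead. These share the same libraries and are not replicates. Reads that mapped poorly had been removed, a filter that takes reads of near-identical repeats out of both maps. No genome sequence or annotation of the build used (MSU7) was at hand, so no gene, repeat or sequence within the windows is named.

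Nucleosomes were listed less densely around the centromeres than elsewhere. The windows held 4213 nucleosomes per Mb and the rest of the chromosomes 4547. In WT there were 3501 summits per Mb against 3756, and in *oschz1-1* 3541 against 3793. The density was lower in the window on 10 of the 12 chromosomes, with chromosomes 6 and 12 as the exceptions. It ranged from 3699.5 per Mb on chromosome 4 to 4733.5 on chromosome 6.

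Next to the centromere point the density was lowest, mainly on 1 side of it. Within 0.1 Mb of the points it was 3685 nucleosomes per Mb, whereas between 0.9 and 1 Mb it was 4460. From the point to 0.25 Mb above it, towards higher coordinates, 3118 nucleosomes per Mb were listed. Over the same length below the point there were 4517. All 12 chromosomes had fewer nucleosomes above than below. The difference was smallest on chromosome 4, with 820 against 839, and on chromosome 3, with 1177 against 1217. It was largest on chromosome 11, with 278 against 1206. Chromosomes 7 (534 against 1263), 1 (613 against 1117) and 2 (634 against 1193) had the next lowest counts above the point. The points are given only to 0.1 Mb, and where each lies within its centromere is unknown here. Whether the placing of the points sets the side of the lower density was not tested.

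The lower density went together with stretches in which no nucleosome was listed. Stretches of more than 1000 bp took up 16.3% of the windows, or 3913679 bp in 1431 stretches, and 8.36% of the rest. The share was higher in the window on 11 of 12 chromosomes. It was 27.3% on chromosome 11, 26.8% on chromosome 4 and 25.2% on chromosome 5, and 8.20% on chromosome 6, the exception. Outside these stretches the order turned, with 5034 nucleosomes per Mb in the windows and 4962 in the rest.

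In 8 windows the longest such stretch was over 10 kb. The middle of the longest stretch lay within 150 kb of the point in 6 of the 12 windows. The longest by far was chr11:12328716-12550047 (MSU7), of 221331 bp. Its middle lay 439 kb above the point, and the longest stretch elsewhere on chromosome 11 was 20205 bp. On the other 11 chromosomes the longest stretch of the chromosome lay outside the window. Chromosome 7 had an empty stretch of 50115 bp at chr7:12176816-12226931, with its middle 102 kb above the point. Chromosome 5 had 22345 bp at chr5:12525756-12548101. Chromosome 3 followed with 18432 bp, chromosome 4 with 16685 bp, chromosome 10 with 14781 bp, chromosome 1 with 14430 bp and chromosome 8 with 12060 bp. The shortest of the longest stretches, 6525 bp, was on chromosome 6, whose window was also the most densely covered. Chromosomes 12 (8610 bp), 9 (7610 bp) and 2 (7396 bp) lay between.

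**Figure D1:**
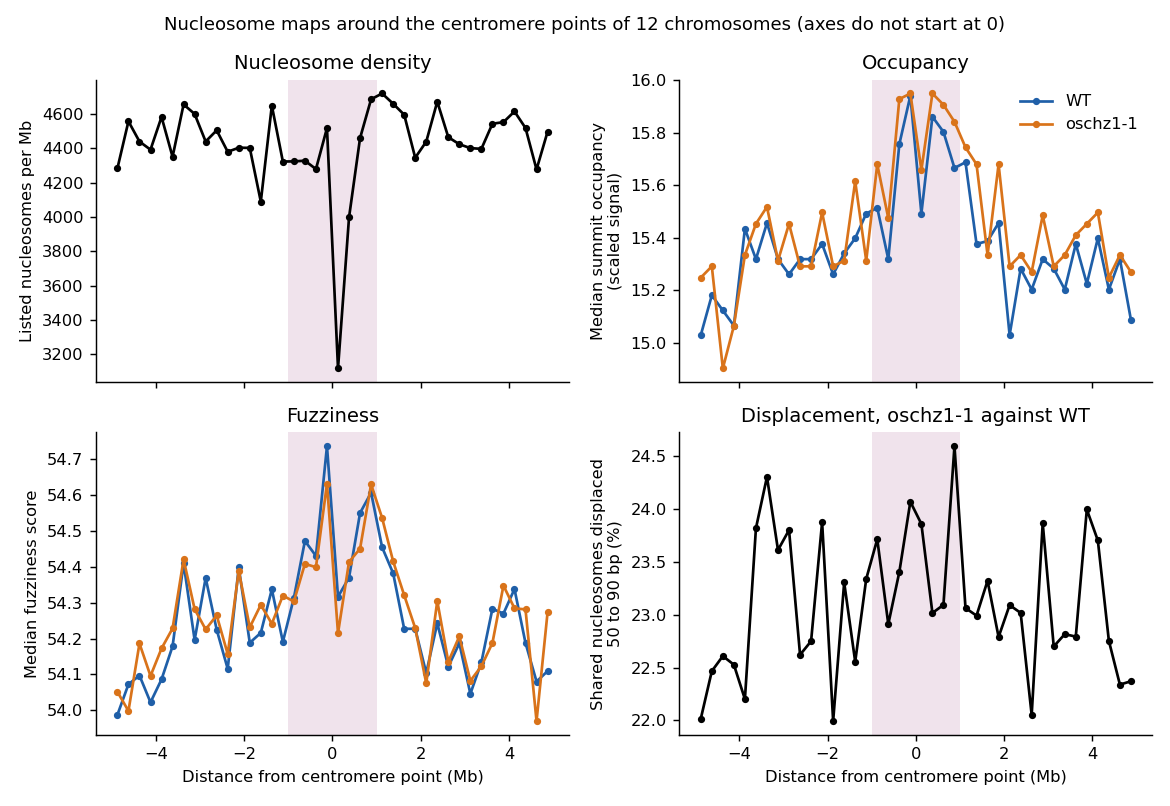
Density of listed nucleosomes (per Mb), median summit occupancy (the authors' scaled signal), median fuzziness score and share of shared nucleosomes displaced by 50 to 90 bp (%), in bins of 0.25 Mb by distance from the centromere point (Mb) over the 12 chromosomes, with WT in blue, *oschz1-1* in orange, values of the pair of maps in black and the windows shaded. Density drops to 3118 per Mb just above the points. The highest bins of occupancy and of fuzziness lie inside the shaded windows, but some bins there are lower than bins outside. The displaced share varies from bin to bin by about as much as it differs between the windows and the rest.

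Where nucleosomes were listed, their occupancy around the centromeres was higher than on the arms, in both genotypes. Occupancy is the signal at the summit, the point of highest coverage of a nucleosome, after the authors' scaling between genotypes. The WT median was 15.7 in the windows and 15.2 in the rest. The *oschz1-1* median was 15.7 and 15.2. On each of the 12 chromosomes the window was the higher in both maps. By chromosome the window exceeded the rest by 0.457 ± 0.187 in WT and by 0.640 ± 0.225 in *oschz1-1* (mean ± SD, 12 chromosomes). WT medians ran from 15.4 on chromosome 5 to 16.0 on chromosome 3, and *oschz1-1* medians from 15.5 on chromosome 1 to 16.2 on chromosome 4. These gaps are small beside the spread among single nucleosomes, whose lower and upper quartiles in the windows were 11.9 and 20.2 in WT and 12.04 and 20.5 in *oschz1-1*.

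The order was the same at summits of the genotype itself. Counting only a genotype's own summits, the windows had 16.9 against 16.5 in WT and 17.0 against 16.4 in *oschz1-1*. Near the edge of the windows the values were alike on both sides. At 0.9 to 1 Mb from the points the WT median was 15.4 and at 1 to 1.1 Mb it was 15.6, while the share with a higher signal in *oschz1-1*, defined below, was 7.67% and 7.49%. Beyond 5 Mb the WT median was 15.2.

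Very high nucleosomes were also more frequent in the windows. An occupancy of 40 or more was reached at 456 nucleosomes in WT (0.451%, and 0.308% in the rest) and at 460 in *oschz1-1* (0.455%, and 0.289%). The share was higher than in the rest on 9 of 12 chromosomes in either genotype, without chromosomes 3, 5 and 8 in WT and without 3, 8 and 12 in *oschz1-1*. In the windows 83 nucleosomes reached 40 in both maps. They were 18.2% of those of WT and 18.04% of those of *oschz1-1*, against 9.94% and 10.6% in the rest. The 456 of WT had a median of 33.4 in *oschz1-1*, and those of the rest 31.7.

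Fuzziness, which scores how widely the fragments of a nucleosome scatter about it, was slightly higher around the centromeres. The WT median of this score was 54.5 in the windows and 54.0 in the rest, and the *oschz1-1* median was 54.4 and 54.1. The window was the higher on all 12 chromosomes in both maps, by 0.447 ± 0.154 in WT and 0.382 ± 0.179 in *oschz1-1* (mean ± SD, 12 chromosomes). High occupancy elsewhere came with low fuzziness, but less so here. In the highest decile of mean occupancy, the median WT fuzziness was 51.5 in the windows and 50.1 in the rest, and it was higher in the window on all 12 chromosomes.

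The median distance to the next summit was 200 bp in WT, in the windows and in the rest alike, and 198 bp against 200 bp in *oschz1-1*. The medians hid a difference among close neighbours. Distances of less than 140 bp, shorter than the DNA of a nucleosome core, made up 16.9% of WT distances in the windows and 15.2% in the rest, and 17.5% and 15.6% in *oschz1-1*. The window had the higher share on all 12 chromosomes in both genotypes. The difference was 1.74 ± 0.652 percentage points in WT and 1.85 ± 0.739 in *oschz1-1*. Distances of more than 1000 bp were also more frequent, at 2.00% against 1.27% in WT and 1.9% against 1.17% in *oschz1-1*. No summits of 1 map were listed closer than 100 bp, so overlapping alternative positions nearer than that could not be seen.

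**Figure D2:**
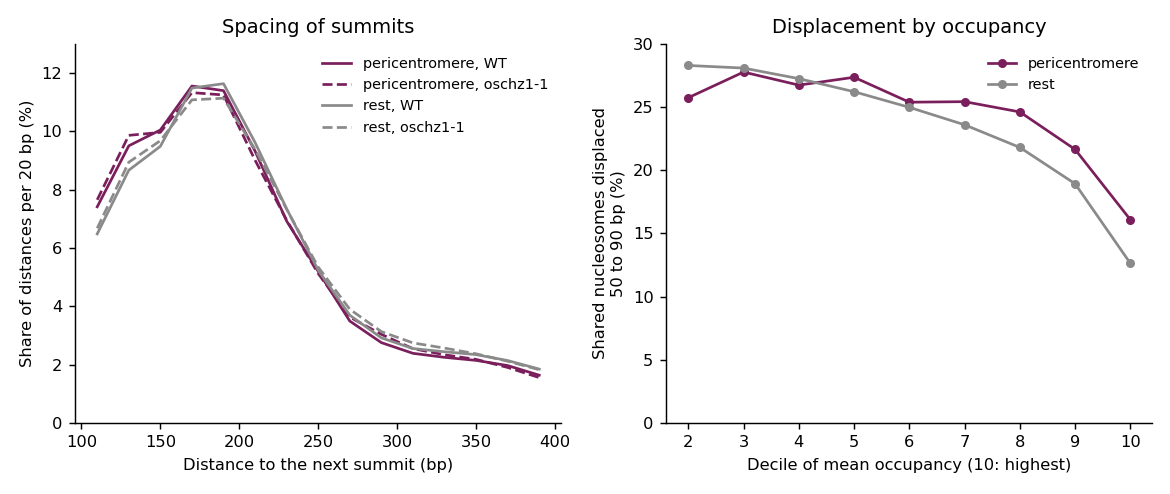
Left, the share of distances to the next summit (%, per 20 bp) by distance (bp), for WT (solid) and *oschz1-1* (dashed) in the windows (purple) and the rest (grey); right, the share of shared nucleosomes displaced by 50 to 90 bp (%) by decile of mean occupancy, in the windows and in the rest. Below 140 bp both purple lines run above the grey ones, and in the highest decile the displaced share is 16.1% in the windows and 12.6% in the rest.

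The question of the study at these nucleosomes is how far the loss of OsChz1 alters occupancy and position. The occupancy of *oschz1-1* was compared with that of WT as a log2 ratio after 1 had been added to both signals. The median of all listed nucleosomes was 0.00079. In the windows it was 0.017, and it was above 0 on all 12 chromosomes, from 0.0027 on chromosome 9 to 0.036 on chromosome 10. In the rest it was above 0 on 6 of 12. The window was the higher on each chromosome, by 0.017 ± 0.0077 (mean ± SD, 12 chromosomes). The surroundings were close to the windows in this measure. The median was 0.015 at 1 to 3 Mb and 0.015 at 3 to 5 Mb from the points, and it was below 0 only beyond 5 Mb, at -0.0057. Shared nucleosomes, those with a summit in both genotypes, gave 0.012 in the windows and -0.0064 in the rest, with the window again higher on all 12. These medians are small, and their sign also depends on how the authors scaled the maps to each other.

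Nucleosomes were called higher or lower in *oschz1-1* where the signal differed at least 2-fold on that scale. Of all listed nucleosomes 8.02% were called higher and 7.79% lower. In the windows 7663 were higher (7.58%) and 7189 lower (7.11%), both shares being below that background. The rest of the chromosomes had 8.05% and 7.83%. At 1 to 3 Mb from the points 7.91% were higher and 7.21% lower, and beyond 5 Mb 8.07% and 8.01%. The low share of lower calls was therefore not particular to the windows. The share called higher was lower in the window than in the rest on 11 of 12 chromosomes, and so was the share called lower. The exceptions were chromosome 10 for higher calls (9.58%) and chromosome 12 for lower calls (7.89%). The lowest shares were 6.63% higher on chromosome 9 and 6.30% lower on chromosome 4. More nucleosomes were higher than lower in 10 windows. The opposite held on chromosome 9, with 583 against 678, and on chromosome 12, with 656 against 708.

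**Figure D3:**
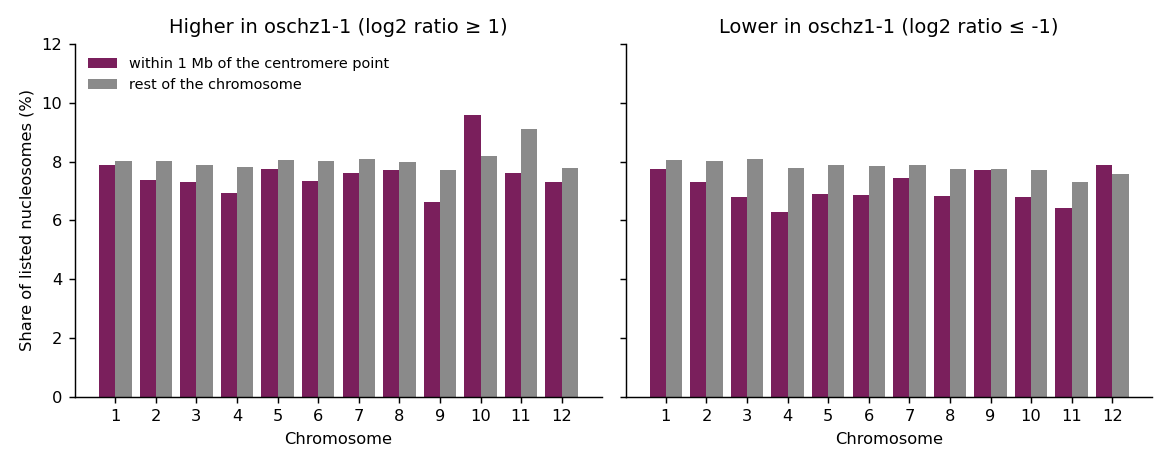
Share of listed nucleosomes (%) that were at least 2-fold higher (left) or lower (right) in *oschz1-1* than in WT, by chromosome, within 1 Mb of the centromere point (purple) and in the rest of the chromosome (grey). The purple bar is the shorter on 11 of 12 chromosomes in either panel, with chromosome 10 at 9.58% on the left and chromosome 12 at 7.89% on the right as the exceptions.

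Most calls came from nucleosomes listed with a summit in 1 map only. The list paired no summits of the 2 maps over distances above 99 bp. Larger shifts could therefore appear in it as single summits, and how many did was not tested. Of the 14852 called in the windows, 13139 (88.5%) had a summit in a single genotype, and 89.8% in the rest. WT alone had a summit at 16134 nucleosomes of the windows, with medians of 14.3 in WT and 7.83 in *oschz1-1*. *oschz1-1* alone had one at 17090, with 7.73 in WT and 14.4 in *oschz1-1*. The 1st percentile of listed WT summits was 10.1, so a map without a summit at a nucleosome mostly had the lower signal there by the way the list was made. The direction of their calls was set by this. Only 4 with a summit in WT alone were called higher, and 2 with one in *oschz1-1* alone lower. In the direction set by the list, 39.2% with a summit in WT alone were called lower, against 42.0% in the rest. Of those with one in *oschz1-1* alone, 39.8% were called higher, against 42.0%. Such nucleosomes were a little rarer near the centromeres. Both genotypes had a summit at 67895 nucleosomes, 67.1% of those in the windows against 66.0% in the rest, and the share was higher on 11 chromosomes. Chromosome 10 was the exception, with 66.1% against 66.3%. Without the run absent from the WT map, described below, its window had 67.4%.

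At the 67895 shared nucleosomes, 850 were called higher (1.25%) and 863 lower (1.27%), against 1.14% and 1.32% of all shared nucleosomes in the map. The rest had 1.14% and 1.32% as well. Higher calls were more frequent in the window than in the rest on 8 of 12 chromosomes and lower calls on 5 of 12, so neither order held throughout. Both shares lay close to the background, and the numbers in either direction were nearly equal.

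The share past a given fold fell with occupancy from decile to decile, and the windows held more nucleosomes of high occupancy. They held 8.70% of their nucleosomes in the lowest decile of mean occupancy and 11.5% in the highest. Within deciles, higher calls were more frequent in the windows in 8 of 10 and lower calls in 1 of 10. Reweighted to the deciles of the rest, the windows had 8.19% higher and 7.67% lower, against 8.05% and 7.83%. Without the runs the same weighting gave 8.05% higher and 7.69% lower, against 7.97% and 7.84% in the rest.

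Position differed between the maps slightly more often in the windows, and their surroundings lay between them and the far arms. In the windows 16017 of the 67895 shared nucleosomes had summits 50 to 90 bp apart. That share of 23.6% compares with 22.4% of all shared nucleosomes and 22.3% in the rest. At 1 to 3 Mb from the points it was 23.0%, at 3 to 5 Mb 22.9% and beyond 5 Mb 22.1%. The window had the higher share on 11 of 12 chromosomes, from 22.6% on chromosome 8 to 25.1% on chromosome 5. Chromosome 1 was the exception with 21.8%. By chromosome the difference was 1.28 ± 0.912 percentage points (mean ± SD). Summits were at the same position in 11.7% of the shared nucleosomes and in 11.8% in the rest, and the median distance was 20 bp in both.

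Direction was even. Of the displaced nucleosomes 7974 lay forward in *oschz1-1*, towards higher coordinates, and 8043 in reverse, 11.2% of all shared nucleosomes in the map being displaced in each direction. More were displaced forward than in reverse in 5 windows. The most forward window was that of chromosome 6 (52.4%) and the least that of chromosome 2 (46.5%). On chromosome 7 summits lay on a grid of 10 bp in 98.8% of cases in WT, against 85.2% to 85.7% elsewhere, and 15.1% of its shared nucleosomes in the window had the same position in both maps, so that resolution differed by chromosome.

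The difference from the arms was largest at well-occupied nucleosomes. In the highest decile of mean occupancy, 16.1% of the shared nucleosomes of the windows were displaced and 12.6% of the rest. This held on all 12 chromosomes. The windows had 16.1% ± 1.10 and the rest 12.7% ± 0.802 (mean ± SD, 12 chromosomes), a difference of 3.35 ± 1.07 percentage points. Windows ran from 14.0% on chromosome 1 to 17.4% on chromosome 8, and the rest from 11.5% to 14.2%, so that the ranges barely touched. In the ninth decile the shares were 21.6% and 18.9%, and in the eighth 24.6% and 21.8%. In deciles 2, 3 and 4 the order was the opposite. The windows had 25.7%, 27.8% and 26.7% there, and the rest 28.3%, 28.1% and 27.3%. The lowest decile had only 4 shared nucleosomes in the windows and 58 in the rest, too few to compare. The same top decile had the higher fuzziness given above, and the part of fuzziness in the displacement was not tested.

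Fuzziness itself was seldom changed. A difference of 15 or more in the score was found upward in *oschz1-1* at 907 nucleosomes of the windows (0.897%, background 1.03%) and downward at 814 (0.805%, background 0.983%). Upward changes were rarer in the window than in the rest on 11 of 12 chromosomes, chromosome 12 being the exception, and downward changes on all 12. At shared nucleosomes the shares were 0.270% and 0.225%, and 0.299% and 0.25% in the rest. The fuzziness of the maps correlated with r = 0.595 over the shared nucleosomes of the windows (0.566 in the rest), and occupancy with r = 0.451 (0.441), as a description across nucleosomes of the same libraries.

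In bins of 10 kb the maps were close to each other nearly everywhere. Of 2227 bins with at least 10 nucleosomes, 55.7% had a median log2 ratio above 0, against 50.1% in the rest. Without the bins that touched a run absent from 1 map, described next, the SD of the bins was 0.128, against 0.123 in the rest. Only 1 such bin of the windows then lay above 0.5 and 2 below -0.5. The highest was chr4:9720001-9730000, at 0.59, with medians of 11.1 in WT and 16.9 in *oschz1-1* over 22 nucleosomes. The lowest was chr10:8140001-8150000, at -0.84, with 18.3 in WT and 7.42 in *oschz1-1* over 13 nucleosomes. Next to it stood chr2:13710001-13720000 at -0.52, with 15.2 and 12.7 over 12 nucleosomes. All 3 lay within 120 kb of their centromere points and held fewer nucleosomes than the mean density of the windows would give.

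**Figure D4:**
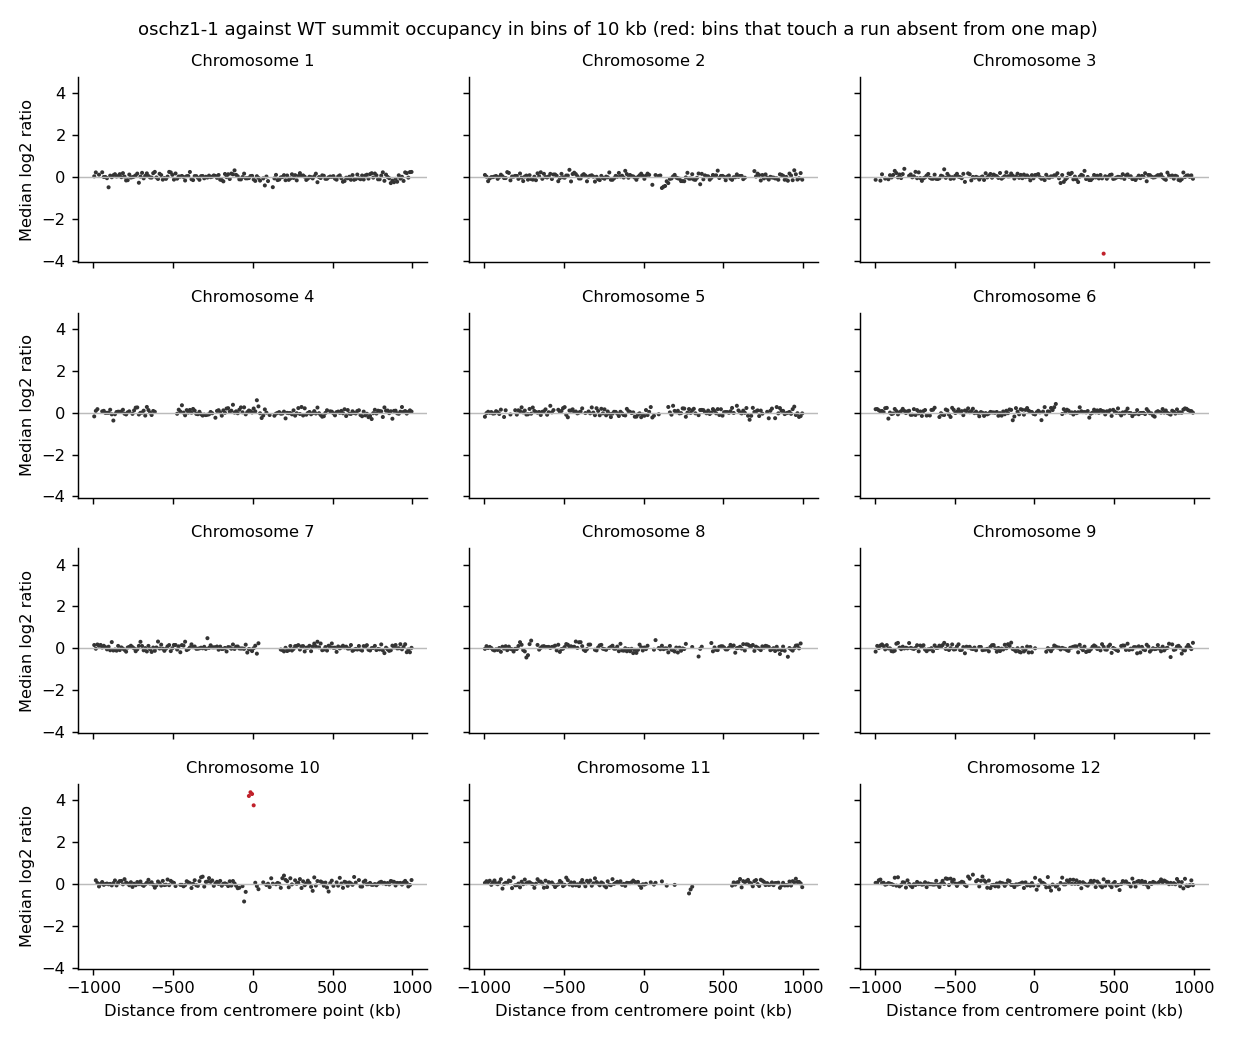
Median log2 ratio of *oschz1-1* to WT summit occupancy in bins of 10 kb with at least 10 nucleosomes, by distance from the centromere point (kb), 1 panel per chromosome, with bins that touch a run absent from 1 map in red. Bins other than the red ones lie between -0.84 and 0.59, and the red ones stand far from them, at up to 4.37 on chromosome 10 and at -3.66 on chromosome 3, and gaps in the rows of points are stretches without enough nucleosomes.

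Apart from this, 2 runs of neighbouring nucleosomes were absent from 1 map altogether. A run was a series of 5 or more neighbours on the list whose signal was below 1 in one map and 5 or higher in the other. The first, chr10:8170591-8207631, held 168 nucleosomes over 37040 bp and spanned the centromere point, from -29.4 to 7.63 kb. WT was at exactly 0 at all 168, whereas *oschz1-1* lay between 9.19 and 42.3 with a median of 18.1 and a median spacing of 190 bp. The second, chr3:19831821-19835881, held 23 nucleosomes over 4060 bp at 432 to 436 kb above the point. Here *oschz1-1* was at 0 at all 23 and WT lay between 11.6 and 24.1, with a median of 17.5 and a spacing of 176 bp.

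In both runs the genotype that had signal showed ordinary occupancy and spacing. For occupancy this follows in part from the definition of a run and from the listing, which holds few low summits. Outside the runs both maps had signal. After the chromosome 10 run the medians over 20 kb were 15.8 in WT and 15.7 in *oschz1-1* (59 nucleosomes). Before it no nucleosome was listed for 10132 bp, and the 23 nucleosomes beyond had medians of 14.5 and 12.01. Around the chromosome 3 run the medians were 16.4 and 16.1 before (91 nucleosomes) and 14.7 and 15.1 after (70 nucleosomes). No other run lay in the windows, and 51 lay in the rest. Runs held 0.189% of the nucleosomes of the windows and 0.0876% of those of the rest. All 51 were absent from WT and lay on chromosomes 10 and 11. The run of chromosome 3 was the only one absent from *oschz1-1*. Isolated low values were few, with 75 nucleosomes of the windows below 1 in WT and 84 in *oschz1-1* outside the runs. The cause of the runs was not tested.

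**Figure D5:**
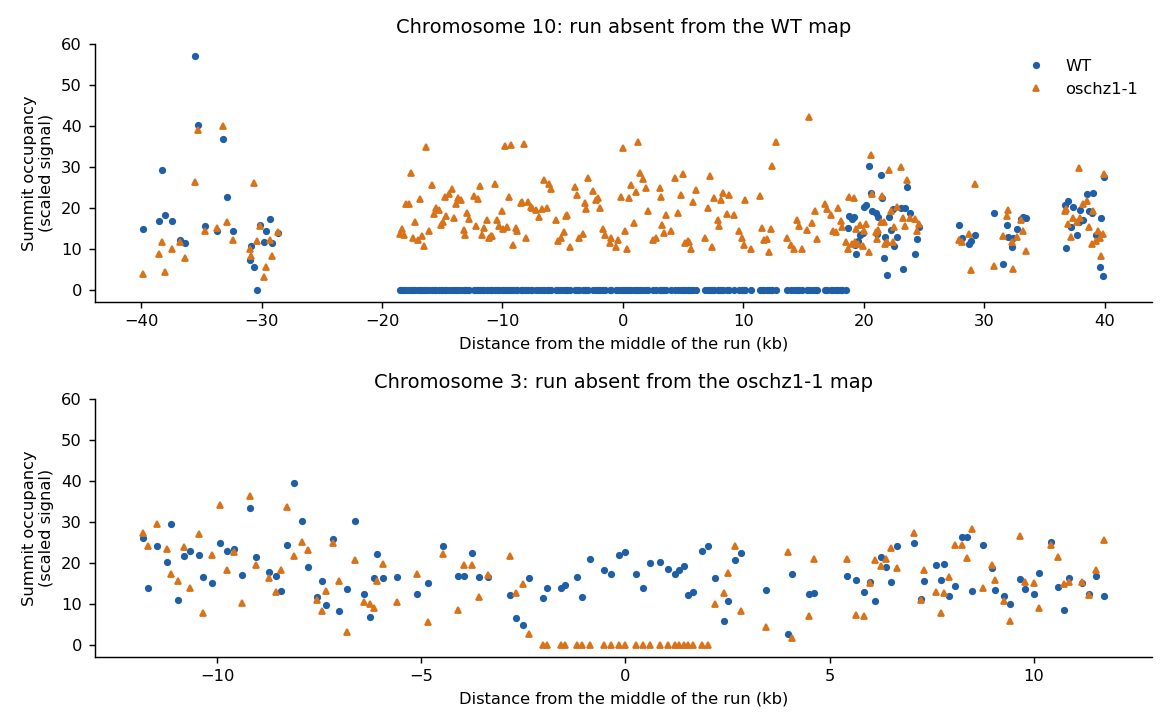
Summit occupancy (the authors' scaled signal) of each listed nucleosome in WT (blue circles) and *oschz1-1* (orange triangles) around the 2 runs, by distance from the middle of the run (kb). WT is at 0 at 168 nucleosomes of chromosome 10 and *oschz1-1* at 0 at 23 of chromosome 3, with both maps covered on either side.

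The run of chromosome 10 set its place among the windows, and that of chromosome 3 changed little. On chromosome 10 the window had 796 nucleosomes higher and 566 lower, and without the run 628 higher (7.71%), below the 9.58% with it. Its median log2 ratio went from 0.036 to 0.018. More nucleosomes were still higher than lower. On chromosome 3 the 619 lower calls became 596. Within 0.1 Mb of the points the share called higher was 9.08% with the runs and 7.32% without. Among all listed nucleosomes no excess near the points was then left. At shared nucleosomes, none of which lay in the runs, 1.52% were higher there and 1.12% lower. At 0.1 to 0.2 Mb the order was the opposite, with 0.973% higher and 1.34% lower. At 0.4 to 0.5 Mb the shares were 1.46% and 1.09%, so they varied between bins without a steady trend. In the windows as a whole these shares were 1.25% and 1.27%. All windows together had 7.43% higher and 7.10% lower without the runs, and the rest 7.97% and 7.84%.

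Single shared nucleosomes were ranked by the difference in signal, which picks nucleosomes that are high in at least 1 map. The largest upward difference was on chromosome 1, from 10.9 in WT at 17022731 to 43.4 in *oschz1-1* at 17022791, with the summit 60 bp further on. A nucleosome of chromosome 2 had its summit at 13238461 in both maps and went from 10.7 to 41.0 (log2 ratio 1.84). On chromosome 10 the signal went from 25.3 at 8094021 to 55.3 at 8094031 (1.10). The first of these was also the sharper in *oschz1-1*, with a fuzziness of 51.8 against 65.6 in WT.

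The largest downward difference was at the nucleosome with the highest WT signal of all windows. On chromosome 7 it went from 66.8 at 11938921 to 20.0 at 11938991 (-1.69). Its neighbour on the list, at 11938821 in WT, went from 56.9 to 30.2 (-0.89), so 2 of the 3 highest WT nucleosomes were next to each other. Their WT summits lay less than 140 bp apart, closer than the DNA of a nucleosome core, so their signals may overlap. The remaining one of the 3, on chromosome 10 at 8153591, lay at -46.4 kb from the point and went from 57.2 to 26.4 (-1.09). A nucleosome of chromosome 11 went from 50.2 at 12914401 to 13.3 at 12914411 (-1.84), with a fuzziness of 43.2 in WT and 54.7 in *oschz1-1*. On chromosome 4 the signal went from 53.8 at 10311221 to 19.2 at 10311223 (-1.44). Such extremes were picked for their difference between single merged values, so they describe these maps and no more.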

How the data were processed

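MNase-seq reads of WT and *oschz1-1* were mapped by the authors to the rice genome (MSU7) with Bowtie2 2.3.4.1, filtered at a mapping quality of 20 and for PCR duplicates, and compared with DANPOS. Options of that run are not given in the sources used here. Summit occupancy is a signal scaled by the authors between genotypes, with replicates merged. Fuzziness and the point value are scores deposited by the authors. Positions are base coordinates of MSU7 as deposited. WT was the control column and *oschz1-1* the treated one. The deposited p-values and FDR hold the authors' own comparison and were not used. Unmapped columns numbered 0.

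From these values, medians, shares and log2 ratios (pseudocount 1) were computed with Python 3.11.15, numpy 2.4.6 and pandas 2.3.3, and plotted with matplotlib 3.10.9. Calls were by fold, by displacement of 50 to 90 bp and by a fuzziness difference of 15. No nucleosome was filtered out. Functions were tested on simulated data. Alternatives covered the window, the pseudocount, filters, limits and each chromosome left out.

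The centromere points, the windows and the definition of a run were chosen with earlier results of these data known. Regions were named by a fixed rule: runs, the 3 highest and 3 lowest bins of 10 kb (also without runs, chosen after seeing the data), the longest empty stretch per window, the 3 largest rises and falls at shared nucleosomes, and the 3 highest WT nucleosomes. The counts on either side of the point were added after the data had been seen. Depth is unknown, so no interval for a value was computed. A Wilson interval (95%) over nucleosomes, which holds no replicate error, served only to judge if a share moved between alternatives. Genes and sequences were not analysed here, as no MSU7 genome or annotation was used.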

Additional observations from a re-analysis of the deposited data

How the results depend on the processing

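No paired analysis was possible because replicates had been merged into 1 value per genotype. Higher WT occupancy and lower density in the windows kept their direction under each alternative tried, but the size depended on the window. Summits per Mb differed by -254.7, by -454.7 within 0.5 Mb of the points and by -155.7 within 2 Mb of them. The WT occupancy difference of 0.486 became 0.602 within 0.5 Mb and 0.348 against 1 to 3 Mb. With chromosomes left out in turn, they were -302 to -223 and 0.428 to 0.486. The share called higher (7.58%) and lower (7.11%) moved with the limit: 8.80% and 8.28% at a pseudocount of 0.1, 3.40% and 3.10% at 5, 18.4% and 17.2% at the lower log2 limit, 0.790% and 0.659% at a log2 ratio of 2, 4.13% and 3.91% above the lower quartile of mean occupancy, 1.25% and 1.27% at shared nucleosomes, and 32.5% and 29.8% with the point value, the occupancy where the maps differ most, listed at 23.2% of the windows' nucleosomes and 32.0% of the rest. In the lower-quartile, shared and point-value settings the share called higher was above that of the rest (4.05%, 1.14% and 25.6%), and with the point value so was the share called lower (25.5% in the rest). Without values of 0, chosen after seeing the data, 7.40% were higher. Chromosomes left out gave 7.40% (without chromosome 10) to 7.67% higher and 7.03% to 7.17% lower. The median log2 ratio was 0.62 with the point value and 0.016 to 0.019 with chromosomes left out. The WT fuzziness difference of 0.443 was 0.234 against 1 to 3 Mb, and 0.422 to 0.464 with chromosomes left out. Median WT spacing differed by -5 bp within 0.5 Mb of the points and by -3 to 0 bp with chromosomes left out. Displaced nucleosomes (23.6%) were 33.7% at 40 to 90 bp, 8.11% at 70 to 90 bp and 23.9% at 50 bp or more. No shared summits lay more than 99 bp apart, so the last setting could not count larger displacements. The displaced share was 23.2% within 2 Mb, 22.9% with both signals above the lower quartile and 23.5% to 23.8% with chromosomes left out. Changed fuzziness (1.70%) was 9.39% at 10, 38.1% at 5 and 0.495% at shared nucleosomes. The cause of the other moves was not tested.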
